A study of Mus musculus with 36 samples.

Results

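The genes described here are 10 markers and regulators of the brown adipocyte, Ucp1, Prdm16, Ppargc1a, Cidea, Dio2, Elovl3, Cox7a1, Cox8b, Ebf2 and Zic1, chosen by name from the 55536 genes of the count tables and followed through the differentiation of a brown pre-adipocyte line. Across 36 RNA-seq libraries they did not behave as one group. Ucp1 never exceeded 5 counted fragments in a library, Zic1 had 1 fragment in the whole series, and Prdm16 and Dio2 stayed at or below 21. Cox7a1 and Cox8b were almost absent until day 2 and had risen 41.4-fold and 374-fold by day 6, Elovl3 peaked on day 2, Ebf2 was present in one clone and nearly missing in the other, and Ppargc1a was detected throughout. The name brown adipocyte genes therefore describes what these genes are known for, and not a common state measured in these cells.

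The cells were mouse brown pre-adipocytes. All groups shared the disruption of endogenous Rxra by CRISPR/Cas9 (Rxra-/-) in a clonal wild-type line, and each had received by retrovirus either wild-type RXRα (RxraWT, labelled WT) or RXRα with 1 serine, a phosphorylation site, replaced by alanine (RxraSA, labelled SA). There were 4 such cell lines, 1 RxraWT and 1 RxraSA line from each of 2 Rxra-/- clones, 48 and 66. Within a clone, genotype and cell line therefore cannot be told apart. All lines were kept in medium with insulin and triiodothyronine throughout. Each was sampled at confluence (day 0), after the induction cocktail of dexamethasone, isobutylmethylxanthine and indomethacin (day 2) and at day 6. With 3 replicates this gave 12 groups of 3 libraries. Clone 48 was sequenced in library pool 1 and clone 66 in library pool 2, so clone and pool cannot be told apart. The series describes the replicates as technical and the methods as independent, so p-values measure only the spread between libraries. Parental cells with native Rxra and cells with an empty vector were not analysed here.

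Brown adipocytes burn lipid for heat. Their mitochondria carry UCP1, which lets protons back across the inner membrane without making ATP, and its gene is switched on by noradrenaline through cyclic AMP, the coactivator PGC-1α (Ppargc1a) and thyroid hormone made locally by the deiodinase Dio2. The fate is set earlier by Ebf2 and Prdm16, which act with PPARγ, the partner of RXRα. The later products Cidea, Elovl3, Cox7a1 and Cox8b serve lipid droplets, fatty acid elongation and the respiratory chain.

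Libraries held 11351078 to 24349263 fragments assigned to genes (median 18338726), so that 1 fragment was worth 0.0384 to 0.081 CPM (counts scaled to library size with the trimmed mean of M values, TMM). Rxra itself was at 92.6 to 712 CPM in every library, in both genotypes. Gene counts do not separate the retroviral transcript from a mutated native one, so this level does not check the knockout. All 15 general adipocyte markers rose from day 0 to day 6, and the largest rises were those of Cfd (log2 fold change 11.83 ± 0.39, SE), Pck1 (11.74 ± 0.47) and Plin1 (11.58 ± 0.20), all with adjusted p of at most 2.31e-17 in edgeR's quasi-likelihood test, while 7 of 8 tested pre-adipocyte markers fell, led by the surface protein gene Ly6a (-5.10 ± 0.18). Of all genes tested, 32.9% rose and 35.4% fell from day 0 to day 6 at an adjusted p under 0.05. The 4 brown genes that stayed near 0 were measured in these same libraries.

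**Figure D1:**
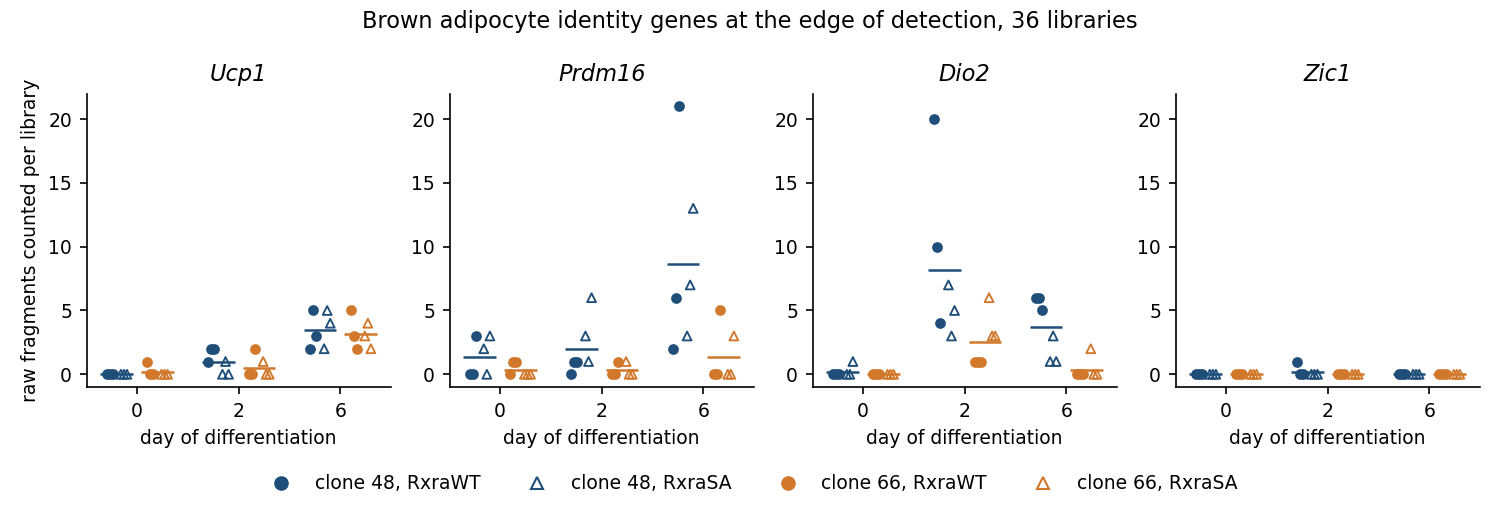
Raw fragments counted for Ucp1, Prdm16, Dio2 and Zic1 in each of the 36 libraries (vertical axis, not normalized) by day of differentiation (horizontal axis). Filled circles are RxraWT, open triangles RxraSA, blue is clone 48 and orange clone 66, and lines are means over 6 libraries; every Ucp1 value lies between 0 and 5, and a single Zic1 fragment was counted.

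Ucp1 (ENSMUSG00000031710.4, chr8:83290352-83298452, plus strand, GRCm38), the uncoupling protein that defines the brown adipocyte, was counted in raw fragments as follows. In clone 48 the 6 libraries of day 0 all had 0. On day 2 the RxraWT libraries of clone 48 had 1, 2 and 2 and the RxraSA libraries 0, 1 and 0. On day 6 RxraWT had 2, 5 and 3 and RxraSA 2, 5 and 4. Every day 6 library of this clone thus held at least 2 fragments and no day 0 library held any, with no overlap between the days. In clone 66 a single RxraWT library of day 0 had 1 fragment and the other 5 had 0. On day 2 RxraWT had 0, 0 and 2 and RxraSA 1, 0 and 0. On day 6 RxraWT had 5, 3 and 2 and RxraSA 3, 4 and 2, again all above every day 0 library.

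Pooled over both clones, Ucp1 went from 1 fragment on day 0 to 9 on day 2 and 40 on day 6. The day 6 level was 0.205 CPM in clone 48 (21 fragments, exact Poisson interval 0.127 to 0.313) and 0.163 CPM in clone 66 (19 fragments, 0.0979 to 0.254). These 95% intervals cover counting error only. The clone 48 day 0 libraries were all at 0, and the day 6 level was 7.21 times that of 3 fragments over the group, taken as the floor. The counting interval of the ratio of day 6 to day 0 in this clone began at 5.365. In clone 66 the ratio of day 6 to day 0 was 21.3, with a counting interval of 3.39 to 886 since it rests on 1 early fragment. The rise from day 0 to day 6 reached the smallest p that an exact two-sided permutation of 6 against 6 libraries allows in both clones (p = 0.00216, adjusted p = 0.0117 over 27 such tests). Such permutations treat the 6 libraries of a clone and day as exchangeable, although same-numbered RxraWT and RxraSA libraries deviated together. Their p-values for days, here and below, may therefore be too small. The main edgeR fits hold no term for these pairs either. Their intervals and p-values for days and clones may thus also be too narrow or too small. The step from day 2 to day 6 also passed in clone 66 (adjusted p = 0.0195) and in clone 48 (adjusted p = 0.0365), and in clone 48 this call was lost when any of 8 single libraries was left out (adjusted p up to 0.0643). From day 0 to day 2 it did not (adjusted p = 0.149 in clone 48 and 0.682 in clone 66), although without RxraSA replicate 1 or 3 of day 2 the clone 48 step passed (adjusted p = 0.0455). In bulk RNA, fewer cells with a transcript and fewer transcripts per cell cannot be told apart.

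The level of Ucp1 can be set beside its paralogs on the scale of fragments scaled for exon length and depth (FPKM). On day 6 Ucp1 stood at 0.126 ± 0.051 in clone 48 and 0.101 ± 0.043 in clone 66 (SD, n = 6). Ucp2, a mitochondrial carrier of many tissues, was at 6.84 on day 6 after a peak of 22.3 on day 2. Ucp3, known from skeletal muscle and brown fat, was at 0.777 on day 6 and rose with a log2 fold change of 3.15 ± 0.22 from day 0 (adjusted p = 1.32e-14). Both relatives were thus at higher levels than Ucp1.

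The bases just upstream of 3 of the genes are shown because Ucp1 and Dio2 hold a match to a searched motif and Cox8b had the largest rise of the 10 genes. They are the 250 bases before the RefSeq start of each gene (GRCm38.p6), 5′ to 3′ on the gene's strand, in lower case with motif matches in capitals. For Ucp1 the capitals mark the nuclear receptor core motif AGGTCA, the unit that RXRα and its partners bind in pairs. For Dio2 they mark a cyclic AMP response element, TGACGTCA.
Ucp1, chr8:83290098-83290347, plus strand: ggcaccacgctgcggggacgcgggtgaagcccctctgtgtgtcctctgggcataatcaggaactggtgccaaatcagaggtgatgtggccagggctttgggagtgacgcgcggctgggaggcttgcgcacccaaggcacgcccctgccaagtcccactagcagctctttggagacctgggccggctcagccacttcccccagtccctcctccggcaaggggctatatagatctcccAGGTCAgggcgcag
Dio2, chr12:90739039-90739288, minus strand: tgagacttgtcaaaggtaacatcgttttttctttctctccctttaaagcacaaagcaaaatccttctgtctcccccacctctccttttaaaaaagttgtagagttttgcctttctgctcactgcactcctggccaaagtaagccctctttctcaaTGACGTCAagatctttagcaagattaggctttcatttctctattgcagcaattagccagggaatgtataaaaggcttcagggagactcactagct
Cox8b, chr7:140900447-140900696, minus strand: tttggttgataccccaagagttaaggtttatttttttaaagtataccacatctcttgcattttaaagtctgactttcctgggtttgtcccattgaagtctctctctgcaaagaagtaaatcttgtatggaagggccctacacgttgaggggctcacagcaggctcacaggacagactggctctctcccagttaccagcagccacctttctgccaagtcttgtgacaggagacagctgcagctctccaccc

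Both strands of these windows were searched for AGGTCA, for its direct repeat with 1 base between (AGGTCANAGGTCA, known as DR1), for TGACGTCA, for the C/EBP palindrome TTGCGCAA and for the EBF palindrome TCCCNNGGGA. Any DR1 also counts as a match to AGGTCA. Among all 32851 RefSeq promoters searched over the same 250 bases, 14.0% held AGGTCA, 1.55% TGACGTCA, 0.779% the EBF palindrome, 0.164% the C/EBP palindrome and 0.0335% a DR1. The Ucp1 match lay 14 to 9 bases before the start and the Dio2 element 95 to 88 bases before it. RefSeq places this Dio2 start upstream of the gene model used for the counts, whose transcripts do not contain the bases that follow it, so the window may not be the promoter of the transcript counted. The windows of Prdm16, Ppargc1a, Cox7a1, Cox8b and Zic1 held none of the 5 motifs in these letters. In all, 7 of the 10 genes had an entry in the promoter table.

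Dio2 (ENSMUSG00000007682.6, chr12:90724552-90738438, minus strand), which activates thyroid hormone inside the brown adipocyte, was highest on day 2. In clone 48 its RxraWT libraries then held 20, 10 and 4 fragments and its RxraSA libraries 7, 3 and 5. On day 0 this clone had 1 fragment in 1 of 6 libraries, and on day 6 RxraWT had 6, 6 and 5 against 1, 3 and 1 in RxraSA. In clone 66 day 2 gave 1, 1 and 1 in RxraWT and 6, 3 and 3 in RxraSA, day 0 gave none, and day 6 gave 2 fragments in a single RxraSA library. Day 2 lay above day 0 without overlap in both clones (exact permutation, adjusted p = 0.0117 in each). In clone 66 the fall from day 2 to day 6 passed too (adjusted p = 0.0334), and in clone 48 it did not (adjusted p = 0.193), where day 6 remained above day 0 (adjusted p = 0.0117). These calls rest on few fragments. Leaving out any 1 day 0 library of clone 48 raised the last of them to 0.0584, and the fall in clone 66 was lost without any 1 of 5 day 6 libraries of that clone (adjusted p = 0.0818). The other deiodinase genes, Dio1 and Dio3, had 5 fragments and 0 fragments over all libraries.

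Prdm16 (ENSMUSG00000039410.16, chr4:154316125-154636873, minus strand), a zinc-finger coregulator that drives the brown over the muscle fate, was counted mainly on day 6 in clone 48, with 2, 6 and 21 fragments in RxraWT and 3, 7 and 13 in RxraSA. The same clone had 0 to 3 on day 0 and 0 to 6 on day 2, so that the days overlapped. In clone 66 day 6 had 0, 0 and 5 in RxraWT and 0, 0 and 3 in RxraSA, and no earlier library exceeded 1. In clone 48 the higher replicates were the third of each genotype, at 1.19 and 0.744 CPM. The day 6 against day 0 comparison in clone 48 just passed (0.501 against 0.0780 CPM, exact permutation, adjusted p = 0.0455) and was lost when either the TMM scaling was replaced by the total count (adjusted p = 0.0519) or single libraries were left out (adjusted p up to 0.0877). In clone 66 it did not pass (adjusted p = 0.682). The close relative Mecom, also a PR-domain gene, was better covered, with up to 559 fragments in a library, and fell from day 0 to day 6 by 1.06 on the log2 scale (adjusted p = 1.31e-05).

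Zic1 (ENSMUSG00000032368.14, chr9:91358058-91365810, minus strand), a transcription factor gene used as a marker of the classical interscapular brown depot, had 1 fragment in a day 2 RxraWT library of clone 48 and 0 in the other 35. No test was run on it. At the pooled depth of the 6 libraries of a clone and day, 3 fragments corresponded to 0.0229 to 0.0318 CPM, and a level under that was not detectable at this depth.

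**Figure D2:**
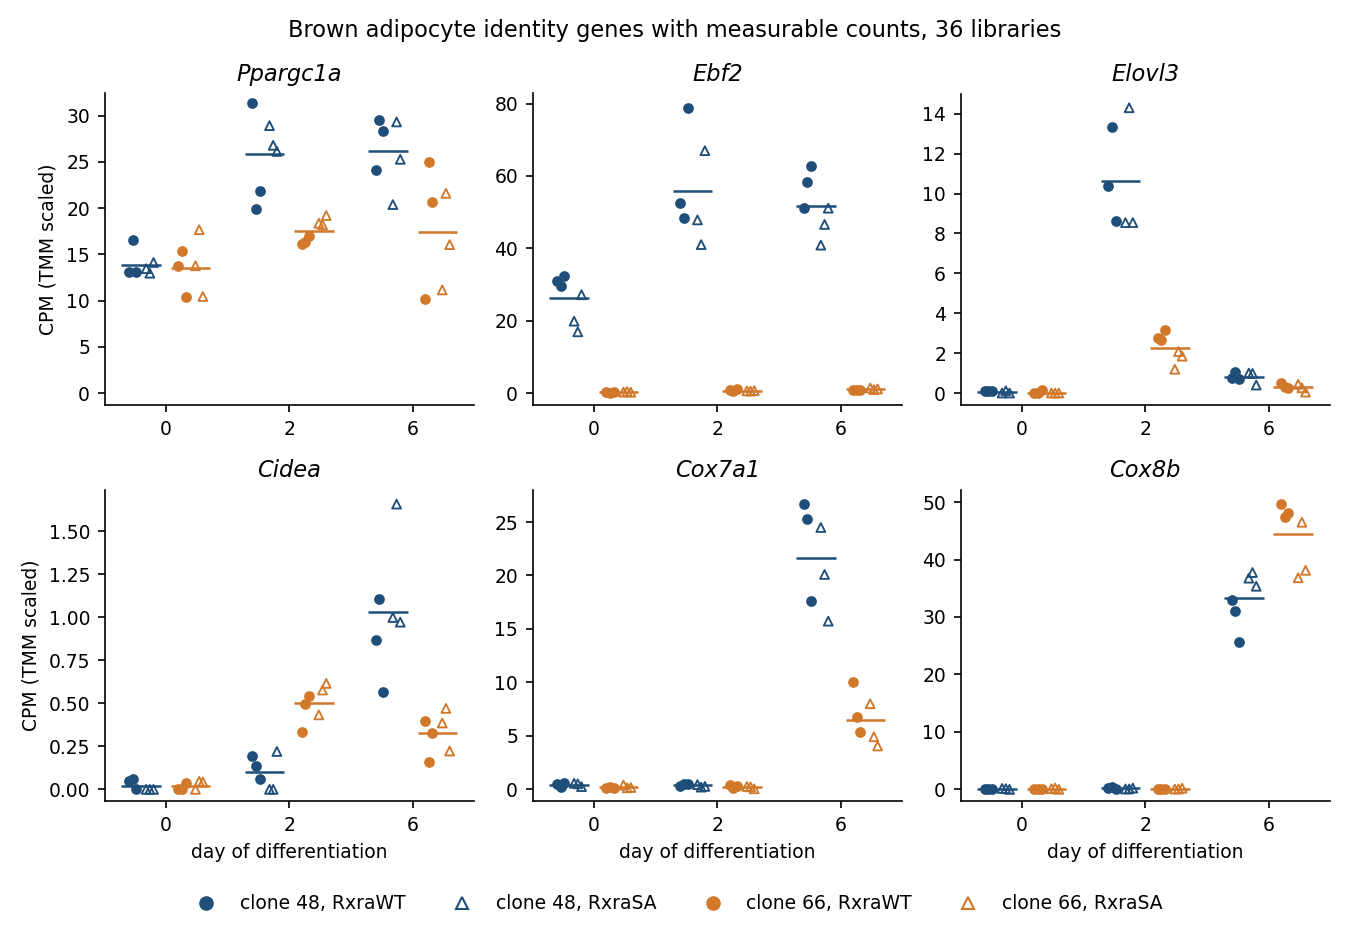
Level of the 6 genes with enough counts for the model, in CPM with TMM scaling (vertical axis, a separate linear scale in each panel), in each of the 36 libraries by day. Symbols and colours are those of the raw counts; Ebf2 lies between 16.9 and 78.8 CPM in clone 48 and between 0.143 and 1.40 in clone 66, and Cox7a1 and Cox8b leave the baseline on day 6.

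Of the 10 genes, 6 passed the filter on low counts (0.545 CPM in at least 6 libraries, here per total count and without TMM scaling) and entered the fit over 16723 genes: Ppargc1a, Ebf2, Elovl3, Cidea, Cox7a1 and Cox8b. Only Ppargc1a reached that level in all 12 libraries of every day. Cox8b reached it on day 6 alone, Cox7a1 in 4 libraries of day 0, none of day 2 and 12 of day 6, Elovl3 in 0, 12 and 5 libraries of the 3 days, and Cidea in 0, 1 and 5. As these genes passed through the day on which they were high, the number of them that changed between days is a description and supports nothing further. From day 0 to day 2, 4 of the 6 rose (adjusted p under 0.05), where 73.3% of all genes tested changed in either direction. From day 2 to day 6, 3 rose and 1 fell, against 62% of all genes, and from day 0 to day 6 all 6 rose, against 68.3%. The total-count scaling in place of TMM shifted all genes by -0.259, 0.0703 and -0.188 (log2, median) for the 3 steps, and among all genes called the share that rose was 33.6%, 57.7% and 34.9% in place of 48.9%, 51.4% and 48.2%, with no call or direction of the 6 genes changed. With the clones fitted apart the shares of all genes called were 65.3%, 51.1% and 56.3% in clone 48 and 61.6%, 50.5% and 57.7% in clone 66 for the same 3 steps.

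**Figure D3:**
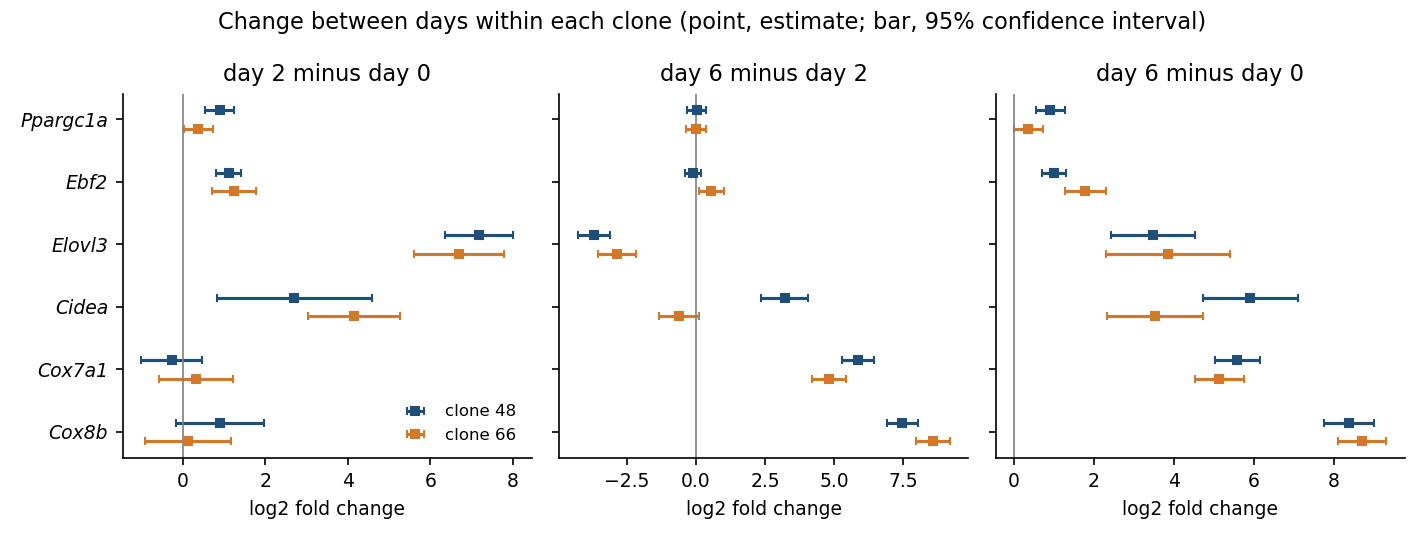
Log2 fold change between days (horizontal axis, a separate scale in each panel) of the 6 genes in the fit, estimated within clone 48 (blue) and clone 66 (orange), 6 libraries per clone and day; squares are estimates and bars 95% confidence intervals. The step of Cidea from day 2 to day 6, the one whose difference between clones was called, lies at 3.20 in clone 48 and -0.62 in clone 66.

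Among the regulators, Ppargc1a (ENSMUSG00000029167.13, chr5:51454250-51567726, minus strand), the coactivator of mitochondrial biogenesis, was detected in every library. In clone 48 it ranged over 13.0 to 16.5 CPM on day 0 (median 13.3), 19.9 to 31.3 on day 2 (median 26.5) and 20.4 to 29.6 on day 6 (median 26.8). In clone 66 it ranged over 10.4 to 17.7 (median 13.7), 16.1 to 19.2 (median 17.6) and 10.2 to 25.0 (median 18.4). Days 2 and 6 stood clear of day 0 in clone 48 and overlapped with it in clone 66. The rise by day 2 was 1.54-fold (95% confidence interval 1.29 to 1.84, adjusted p = 4.34e-05), and from day 2 to day 6 no change was called (log2 fold change 0.01, interval -0.24 to 0.26). Fitted within clones, the rise by day 2 was 1.86-fold in clone 48 (adjusted p = 5.08e-05) and 1.29-fold in clone 66 (adjusted p = 0.0642), and the difference between the clones did not pass (adjusted p = 0.241). The clone 66 value is at the edge of the call. It passed with the replicate number as a block (log2 fold change 0.39, adjusted p = 0.0258), in the unfiltered fit (adjusted p = 0.0373) and in 14 of the 36 fits without a single library. In all, 16 of 44 fits called it, and its log2 fold change ran from 0.087 to 0.483 over them, so its size depends on the processing. Its relative Ppargc1b, a coactivator with overlapping targets, moved more, from 0.542 FPKM on day 0 to 5.42 on day 2 and 3.38 on day 6. Pprc1, the third of the family, peaked at 3.58 FPKM on day 2.

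Ebf2 (ENSMUSG00000022053.13, chr14:67233292-67430918, plus strand), a transcription factor that marks committed brown precursors, separated the clones on every day. In raw fragments, clone 48 had 245 to 638 on day 0 (median 510), 591 to 1272 on day 2 (median 781) and 736 to 1107 on day 6 (median 858.5). Clone 66 had 3 to 10 (median 5), 9 to 19 (median 12) and 14 to 29 (median 17). The highest clone 66 library stood at 1.40 CPM and the lowest clone 48 library at 16.9, so the clones did not overlap on any day. The difference, clone 66 minus clone 48, was -6.48 ± 0.21 on day 0, -6.36 ± 0.20 on day 2 and -5.70 ± 0.19 on day 6 (log2, SE; adjusted p of 1.9e-19, 7.64e-20 and 4.17e-19). Within both clones it rose, by 2.17-fold in clone 48 (interval 1.76 to 2.68) and 2.35-fold in clone 66 (1.62 to 3.42) from day 0 to day 2. From day 2 to day 6 the clone 66 value was 1.47-fold (adjusted p = 0.0384), a call that was lost in the unfiltered fit, in DESeq2 and in 7 of the fits without a single library (adjusted p up to 0.102), against 0.923-fold in clone 48 (adjusted p = 0.535). In the same family, the day 6 clone difference of Ebf1 was 0.06 (adjusted p = 0.789) and that of Ebf3 -0.44 (adjusted p = 0.0517), and Ebf4 was outside the fit. Ebf1 was the most abundant of the 4 at 11.5 FPKM on day 6 over both clones, where Ebf2 had 7.48 in clone 48 and 0.144 in clone 66.

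Elovl3 (ENSMUSG00000038754.5, chr19:46131897-46135694, plus strand), a fatty acid elongase of brown fat and skin, was a gene of day 2. On day 0 its libraries had 0 to 2 fragments in clone 48 and 0 to 4 in clone 66. On day 2 they had 135 to 206 in clone 48 (median 158) and 22 to 58 in clone 66 (median 42), and on day 6 only 7 to 18 (median 14) and 1 to 9 (median 5.5). Day 2 did not overlap with either other day in either clone, nor did the clones overlap on day 2. The fall from day 2 to day 6 was 3.39 ± 0.22 on the log2 scale, that is to 0.0952 of the day 2 level (interval 0.0697 to 0.130, adjusted p = 2.83e-15). The rise from day 0 was 6.95 ± 0.32 (adjusted p = 8.31e-20), an estimate that depends on the few day 0 fragments and went to 7.75 without 1 day 0 library (RxraSA replicate 2 of clone 48). Pooled fragments gave a ratio of 119.7 between day 2 and day 0 over both clones (counting interval 68.3 to 232). Clone 66 stood below clone 48 by 2.26 ± 0.25 on day 2 (adjusted p = 6.14e-08) and by 1.42 ± 0.38 on day 6 (adjusted p = 0.00552), both as log2. No difference between the clones was called in these steps (adjusted p = 0.861 for day 2 against day 0 and 0.375 for day 6 against day 2). In the same family Elovl6 fell by 2.95 ± 0.12 and Elovl7 by 1.53 ± 0.34 from day 0 to day 6, Elovl1 fell by 0.77, Elovl5 rose by 0.79 (all log2), Elovl4 peaked on day 2 at 2.88 FPKM, and Elovl2 had 1 fragment in the series.

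Cidea (ENSMUSG00000024526.9, on chromosome 18, plus strand), a lipid droplet protein that enlarges droplets and marks brown and beige fat, followed a different course in each clone. In clone 48 the day 2 libraries had 3, 2 and 1 fragments in RxraWT and 0, 0 and 4 in RxraSA, and the day 6 libraries had 14, 19 and 10 and 18, 27 and 17. In clone 66 the day 2 libraries already had 6, 9 and 10 in RxraWT and 8, 10 and 12 in RxraSA, and the day 6 libraries had 7, 3 and 6 and 8, 9 and 5. No day 0 library exceeded 1 fragment. The clones did not overlap on either later day, and their order was exchanged between them: clone 66 was 4.59-fold above clone 48 on day 2 (interval 2.41 to 8.73, adjusted p = 0.000441) and at 0.325 of its level on day 6 (0.207 to 0.509, adjusted p = 0.000292). From day 2 to day 6 it rose 9.20-fold in clone 48 (5.14 to 16.5) and changed 0.651-fold in clone 66 (0.398 to 1.07, adjusted p = 0.143). The difference between these steps was -3.82 ± 0.55 on the log2 scale (adjusted p = 3.40e-05) and was the only clone-by-day difference called among the 6 genes, where 6.18% of all genes tested were called for that step, 6.84% for day 2 against day 0 and 3.85% for day 6 against day 0. Left without RxraSA replicate 3 of clone 48 day 2, which held 4 of the 10 fragments of that clone and day, it was -5.68, the rise of clone 48 by day 2 was no longer called (log2 fold change 0.84, adjusted p = 1.00), and the day 2 difference between clones went from 2.20 to 4.05. With a filter of 1 CPM in 6 libraries the gene was not tested. It passed the main filter through 1 library of day 2 and 5 of day 6, and on day 6 mainly through clone 48. The day 6 difference between clones and the difference between the steps are therefore descriptions only. Over both clones the step from day 2 to day 6 was called (1.99-fold, adjusted p = 0.0239) but averages a rise and its absence, and was lost without RxraWT replicate 2 of clone 48 day 6 (adjusted p = 0.0519) or without RxraWT replicate 3 of clone 48 day 2 (adjusted p = 0.0512). Its relative Cidec, the droplet protein of white and brown fat alike, was at 326 FPKM on day 6 against 0.923 and 0.294 for Cidea in clones 48 and 66, and had risen by 8.47 ± 0.31 (log2). Cideb rose by 1.44.

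The 2 cytochrome c oxidase genes were the late members. Cox7a1 (ENSMUSG00000074218.3, chr7:30184144-30186078, plus strand) and Cox8b (ENSMUSG00000025488.9, chr7:140898945-140900446, minus strand) encode the subunit isoforms used in brown fat, heart and skeletal muscle in place of the common Cox7a2 and Cox8a. Cox7a1 had 2 to 11 fragments on day 0, 1 to 8 on day 2 and, on day 6, 275 to 441 in clone 48 (median 378) and 91 to 178 in clone 66 (median 112). Cox8b had 0 to 5 on day 0, 1 to 6 on day 2 and, on day 6, 453 to 662 in clone 48 (median 574) and 763 to 889 in clone 66 (median 876.5). For both genes each day 6 library was above every earlier one in its clone. The upstream window of Cox8b, printed above, and that of Cox7a1 held none of the 5 motifs.

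From day 2 to day 6 Cox7a1 rose 42.7-fold (interval 31.5 to 57.8, adjusted p = 3.90e-21) and Cox8b 256-fold (189 to 347, adjusted p = 9.78e-26). Before that neither had a called change, with intervals from day 0 to day 2 of 0.650- to 1.44-fold for Cox7a1 and 0.855- to 2.50-fold for Cox8b. A difference between the clones was called for Cox7a1 alone. Cox7a1 was lower in clone 66 on day 0 (-1.29 ± 0.39, adjusted p = 0.0150) and on day 6 (-1.74 ± 0.21, adjusted p = 2.37e-07), without overlap on day 6. Cox8b had a day 6 difference of 0.42 ± 0.18 in the other direction that did not pass (adjusted p = 0.0806), while it did pass with the replicate block (adjusted p = 0.0106), in DESeq2 (adjusted p = 3.48e-04) and with day 6 libraries fitted alone (adjusted p = 0.00631). In all, 4 of 45 fits called it, and the clones overlapped in Cox8b CPM on day 6. Over the 12 means of clone, genotype and day the log2 levels of the pair had a Pearson correlation of 0.96, the highest among the 15 pairs of the 6 genes, a description over means that share clones, days and libraries.

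**Figure D4:**
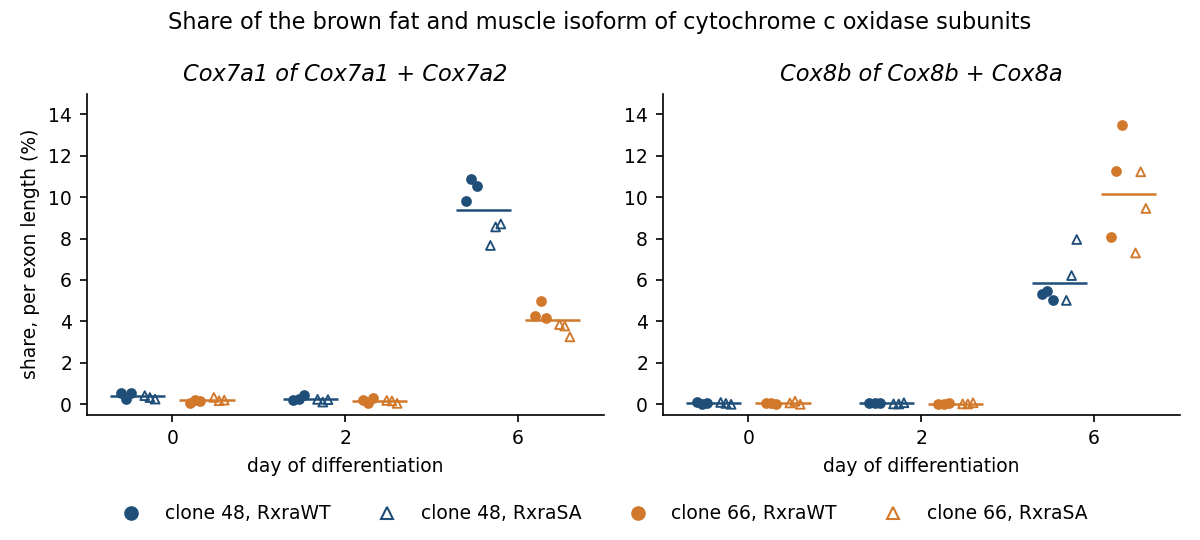
Share of the brown fat and muscle isoform in its pair (vertical axis, percent, each gene per length of exon) by day in each of the 36 libraries, for Cox7a1 with Cox7a2 (left) and Cox8b with Cox8a (right). Symbols and colours are those of the raw counts and lines are means over 6 libraries; shares are at most 0.562% until day 2 and reach 3.25 to 10.9% (Cox7a1) and 5.02 to 13.5% (Cox8b) on day 6.

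Set against the common isoform in the same library, per exon length, Cox7a1 made up 0.397% ± 0.138 (SD, n = 6) of the pair on day 0, 0.237% ± 0.108 on day 2 and 9.36% ± 1.25 on day 6 in clone 48. In clone 66 it made up 0.190% ± 0.082, 0.165% ± 0.095 and 4.05% ± 0.59. Cox8b made up 5.83% ± 1.13 of its pair on day 6 in clone 48 and 10.1% ± 2.29 in clone 66, from at most 0.148% in any earlier library. The day 6 share lay above both earlier days in all 4 cases (exact permutation of 6 against 6, p = 0.00216, adjusted p = 0.00325 over 12 tests), and the 2 clones did not overlap for Cox7a1 and did for Cox8b. The common isoforms remained the larger part. On day 6 Cox8a was at 1328 FPKM against 92.4 and 123 for Cox8b in clones 48 and 66, and Cox7a2 at 343 against 40.5 and 12.2 for Cox7a1. Cox8a itself rose by 1.38 and Cox7a2 by 0.79 (log2) from day 0 to day 6, and Cox8c had no fragment.

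Ranked by FPKM on day 6, clone 48 gave the order Cox8b, Cox7a1, Ebf2, Ppargc1a, Cidea, Elovl3, Ucp1, Prdm16, Dio2 and Zic1. The ranges of Cidea and Elovl3, of Ucp1 and Prdm16 and of Prdm16 and Dio2 overlapped, and each other gene stood clear of the next. In clone 66 the order was Cox8b, Cox7a1, Ppargc1a, Cidea, Elovl3, Ebf2 and Ucp1, with Dio2, Prdm16 and Zic1 at a median of 0. From Cidea to Ucp1 each range overlapped with the next, so the place of Ebf2, the third gene of clone 48, is not fixed there beyond that.

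Whether the serine to alanine change alters any of these genes is the question of the genotype comparison. The fitted genes gave no call between RxraSA and RxraWT on day 0, day 2 or day 6, where 0% of all genes were called (edgeR's quasi-likelihood test; at an unadjusted p under 0.05, 139, 162 and 125 genes and none of the 6). DESeq2 also called 0 genes on each day (116, 130 and 101 at an unadjusted p under 0.05). With the replicate number as a block within day, 0, 1 and 0 genes were called and none of the 6. The intervals differ greatly in what they leave possible. Without the pairing of replicate numbers, on day 6 the ratio of RxraSA to RxraWT was 1.00 for Cox8b (0.802 to 1.25), 0.821 for Cox7a1 (0.608 to 1.11), 0.894 for Ppargc1a (0.698 to 1.15), 0.985 for Ebf2 (0.726 to 1.34), 0.836 for Elovl3 (0.489 to 1.43) and 1.34 for Cidea (0.692 to 2.58). On day 2 Elovl3, then at its peak, had a ratio of 0.801 (0.566 to 1.13). On day 0, when Cidea and Elovl3 had almost no fragments, their log2 intervals ran from -3.32 to 2.62 and from -3.73 to 0.05, so that no difference was detectable at this depth.

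With same-numbered libraries paired within day, 3 of the 18 intervals did not include a ratio of 1, none with an adjusted p under 0.05 over all genes. The share of all genes with such an interval is not given here, so these 3 are a description and are not shown to stand out. They were those of Cox7a1 on day 6 (0.820, interval 0.698 to 0.964, edgeR, adjusted p = 1.00), Ebf2 on day 0 (0.702, 0.584 to 0.845, adjusted p = 0.807) and Ppargc1a on day 2 (1.13, 1.02 to 1.26, adjusted p = 1.00). Cox7a1 on day 6 was lower in RxraSA in all 6 pairs, although its CPM overlapped between the genotypes in both clones. Its share of the pair with Cox7a2 was then 9.81 to 10.9% in RxraWT and 7.67 to 8.70% in RxraSA in clone 48, and 4.16 to 5.01% and 3.25 to 3.85% in clone 66. The genotypes did not overlap in this share in either clone, a difference noticed after the values were seen and not tested. Ebf2 on day 0 was lower in RxraSA in 5 of 6 pairs. Its genotypes did not overlap in clone 48, with 29.6 to 32.5 CPM in RxraWT and 16.9 to 27.2 in RxraSA. In clone 66 they overlapped at few fragments, with 5, 3 and 10 in RxraWT and 5, 9 and 5 in RxraSA. Ppargc1a on day 2 was higher in RxraSA in 5 of 6 pairs. Cox8b on day 6 was without overlap in both clones but in opposite directions, with 25.7 to 33.0 CPM in RxraWT and 35.35 to 37.7 in RxraSA in clone 48, and 47.5 to 49.65 and 36.8 to 46.5 in clone 66. The same held for Ebf2 on day 6, with 51.2 to 62.8 and 40.9 to 51.1 CPM in clone 48. In clone 66 it had 0.790 to 0.881 CPM in RxraWT and 0.941 to 1.40 in RxraSA. The day 6 ratios of both genes given above average these opposite differences.

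**Figure D5:**
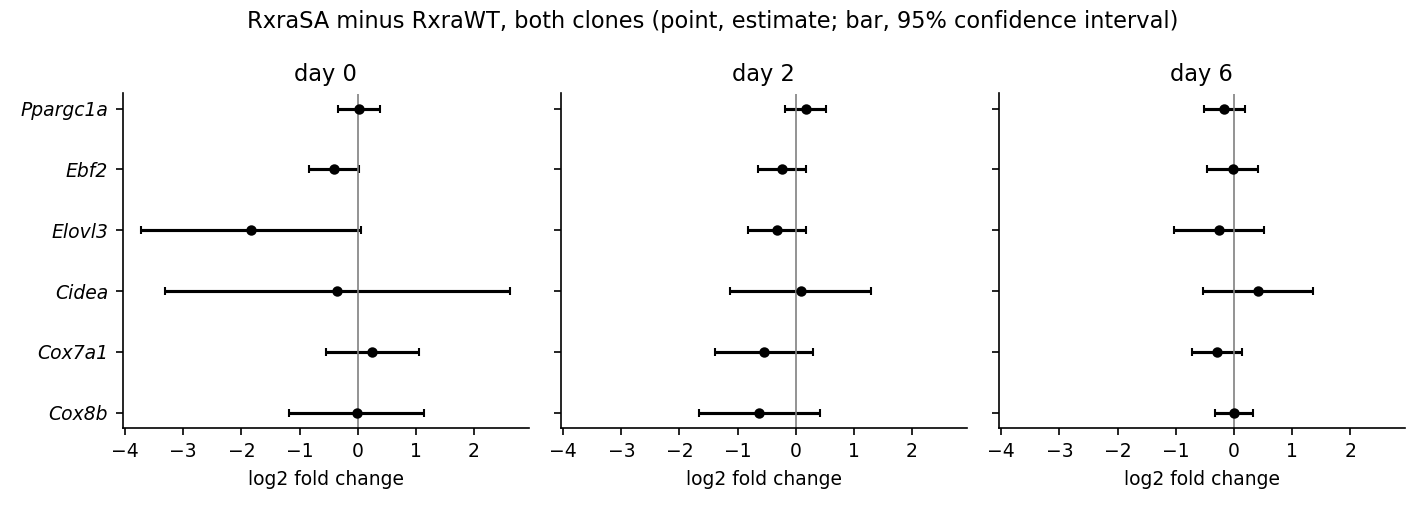
Log2 fold change of RxraSA minus RxraWT (horizontal axis) on day 0, 2 and 6 for the 6 genes in the fit, 6 libraries per genotype and day; points are estimates and bars 95% confidence intervals of the fit without pairing. All 18 of these intervals include 0, and the widest are those of Cidea and Elovl3 on day 0.

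Nor was a difference between the genotypes called in the change between days. No gene was called for the genotype-by-time difference of any of the 3 steps (0% of genes, with 144, 153 and 128 at an unadjusted p under 0.05; DESeq2 0, with 125, 133 and 109), and for day 6 against day 0 the interval of this difference ran from 0.367- to 1.29-fold for Cox7a1 and from 0.622- to 1.26-fold for Ppargc1a. The clones gave no called difference in genotype effect (0% of genes on each day, with 283, 214 and 200 at an unadjusted p under 0.05; DESeq2 0, with 253, 168 and 177). The smallest unadjusted p among the 6 was that of Ebf2 on day 6 (0.76 ± 0.36, log2, edgeR, adjusted p = 1.00), where the mean was higher in RxraSA in clone 66 (1.15 against 0.843 CPM) and in RxraWT in clone 48 (57.4 against 46.2 CPM). Blocked by replicate within day, 4, 1 and 3 genes were called on the 3 days, none of them among the 6. For the genes outside the fit, RxraSA against RxraWT was tested by permuting labels within clones. Ucp1 on day 6 was at 0.182 CPM in RxraSA and 0.190 in RxraWT (exact permutation, p = 0.86, adjusted p = 0.99), Prdm16 at 0.246 and 0.323 (adjusted p = 0.859) and Dio2 at 0.0656 and 0.168 (p = 0.1, adjusted p = 0.193). The smallest of these 9 raw p-values was 0.1.

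Between clones, 2 of the 6 genes differed on day 0, where 23.7% of all genes did, 4 on day 2 (30%) and 5 on day 6 (26.2%). The 5 of day 6, Ebf2, Cox7a1, Cidea, Elovl3 and Ppargc1a (-0.59 ± 0.17, adjusted p = 0.0110), were all lower in clone 66, and Ebf2 and Cox7a1 were lower on day 0. Cidea reached the filter level in 5 libraries of day 6, when its clone 66 libraries lay at 0.161 to 0.471 CPM. It thus passed the filter mainly through clone 48, where it was high, so its part in the day 6 count is a description only. Fitted on the day 6 libraries alone the call of Ppargc1a was lost (adjusted p = 0.0790), Cox8b was gained, and Cidea and Elovl3 did not pass the filter and were not tested. On day 2 Cidea was higher in clone 66 and Ebf2, Elovl3 and Ppargc1a (-0.56 ± 0.17, adjusted p = 0.0134) lower. Among the genes outside the fit, Prdm16 and Dio2 also had more fragments in clone 48 (72 and 72 of 84 and 89), which was not tested.

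Of 21 further brown factors and thermogenic regulators, 16 were tested, and from day 0 to day 6, 9 rose and 4 fell (median log2 fold change 0.40, against -0.03 over all genes). The largest rises were those of Irf4, a factor that works with PGC-1α (5.51 ± 0.22), Cebpa (4.53 ± 0.17) and Pparg (2.80 ± 0.08), master regulators of fat cell formation, and the falls were led by Nr4a1 (-0.76 ± 0.21), Sirt1 (-0.44 ± 0.07) and Creb1 (-0.34 ± 0.10), the last the factor that binds cyclic AMP response elements. Irf4 was lower in clone 66 on day 6 (-1.69, adjusted p = 1.59e-07). Bmp7, Lhx8 and Esrrg, each known from brown fat, were among the genes at 0 to 2 fragments in every library.

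Of 25 effectors enriched in brown fat, 21 were tested; 13 rose and 4 fell from day 0 to day 6 (median 0.93). The largest rises were those of Clstn3 (5.44 ± 0.20), Fgf21, a secreted metabolic hormone (4.74 ± 0.44), and Mtus1 (4.05 ± 0.14). Hspb7 (-2.78 ± 0.24), S100b (-1.50 ± 0.18) and Slc29a1 (-1.04 ± 0.10) fell most. Fgf21, like Elovl3, was highest on day 2, with 0.0335 FPKM on day 0, 3.87 on day 2 and 1.06 on day 6. At the input side, 8 of the 15 genes of β-adrenergic and cyclic AMP signalling rose and 3 fell. Adrb3, the β3-adrenergic receptor of adipocytes, rose by 10.54 ± 0.27 and reached 22.2 FPKM on day 6, Rgs2 by 8.12 ± 0.33 and the phosphodiesterase Pde3b by 3.62 ± 0.42, while Adcy3 (-1.05 ± 0.12), Pde4b (-1.02 ± 0.15) and Pde4d (-0.46 ± 0.15) fell. The receptor gene was expressed on day 6 in cells with 2 to 5 Ucp1 fragments per library. The culture methods name no adrenergic agonist, and a link between the levels of these genes was not tested.

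Of the 15 genes listed as repressors of the brown programme, all were tested, and 7 rose and 3 fell by day 6 (median 0.07). Zfp423, which holds white adipocytes in their state (3.52 ± 0.27), Rb1 (1.93 ± 0.07) and Nrip1 (1.75 ± 0.15), a corepressor acting on Ucp1, rose most, and Foxp1 (-1.12 ± 0.15), Foxs1 (-0.82 ± 0.12) and Twist1 (-0.64 ± 0.08) fell. Of 20 beige and white fat markers 16 were tested, and 9 rose and 5 fell (median 1.25). Here Retn, encoding resistin (12.25 ± 0.25), Lep, encoding leptin (8.82 ± 0.29), and Wfdc21 (8.11 ± 0.20) rose most, and the falls were those of Tnfrsf9 (-1.14 ± 0.24), Hoxc9 (-0.79 ± 0.09), Shox2 (-0.76 ± 0.07) and 2 others. On day 6 Lep was at 1.45 FPKM and Retn at 262, both above Ucp1. Each list's share of called genes can be read against 68.3% of all genes for this step (32.9% higher and 35.4% lower), and no list was tested against the rest.

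Markers of other cells were examined because Cox7a1, Cox8b and Ucp3 are also muscle genes. Of 14 skeletal muscle markers 4 passed the filter and 6 had under 3 fragments in every library, among them the fate regulators Myod1 and Myf6 at 0. Des (3.05 ± 0.15) and Acta1 (1.81 ± 0.16) rose and Pax3 fell (-1.64 ± 0.11) from day 0 to day 6. The summed level of the list was 62.0 to 111 CPM on day 0, 29.2 to 42.8 on day 2 and 44.3 to 60.5 on day 6. It was thus highest on day 0 and, like Cox7a1 and Cox8b, higher on day 6 than on day 2. Its part in the change of these genes was not tested. The pan-leukocyte marker Ptprc had 4 fragments and the endothelial Kdr and Cdh5 had 4 and 5 over all 36 libraries. These genes were named after their values were seen and do not stand for the macrophage and endothelial lists. The macrophage markers summed to 13.26 to 20.98 CPM on day 0. They summed to 4.62 to 7.033 on day 2 and 9.006 to 14.94 on day 6. The endothelial markers summed to 1.235 to 2.593, 0.4858 to 1.343 and 0.4184 to 1.397 CPM on these days. Of 8 macrophage markers 3 were tested, of which Cd68 rose (0.27 ± 0.10) and Lyz2 (-3.82 ± 0.34) and Cd14 fell. Of 8 endothelial markers 2 were tested, with Pecam1 higher (0.58 ± 0.24) and Vwf lower (-1.29 ± 0.25), and of 8 Schwann and neural markers 5, among them Snap25 (7.39 ± 0.56) and Gfap (0.70 ± 0.27), which were higher, and Tubb3 (-3.24 ± 0.45), which was lower.

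Among all other genes fitted, those with the most similar course over the 12 means (genes with a mean of at least 1 log2 CPM) were Selenbp1 (r = 0.998), Bsg and Tpi1 for Cox8b, and Ric8b (r = 0.987), A430046D13Rik and Adcy5 for Cox7a1. For Elovl3 they were Secisbp2 (r = 0.990), Timm8a1 and Ubac1, for Ebf2 Arih1 (r = 0.990), St3gal6 and Zfp704, for Ppargc1a Nfrkb (r = 0.968), Atg3 and Tha1, and for Cidea Fam126b (r = 0.936), Csrp2 and Hdhd3. These are Pearson correlations over 12 means that share days, clones and pools, and they compare shape, not size.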

How the data were processed

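RNA was measured in 36 libraries of brown pre-adipocytes by paired-end sequencing of stranded total RNA. The authors aligned reads to GRCm38.p6 with STAR 2.7.0d and GENCODE M21, and deposited raw counts of fragments per gene from featureCounts 1.6.2. It was run without strand, so the counts of a gene do not separate sense from antisense fragments. Their model was fitted with edgeR 3.24.3.

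The deposited counts were fitted here with edgeR 4.0.16 (quasi-likelihood test, TMM scaling, Benjamini-Hochberg adjustment over 16723 genes of 55536, R 4.3.3), with genotype and day plus a clone term for days and genotypes, and with 12 groups for clones. Intervals are at 95%. CPM and FPKM were computed from the counts. Ucp1, Prdm16 and Dio2, below the filter, were tested by two-sided exact permutation of CPM, days within a clone and genotypes within a day and both clones, with 27 tests adjusted together. The smallest p possible was 0.00216 for days and 0.005 for genotypes. Same-numbered RxraWT and RxraSA libraries were not kept together in any permutation of days, so its p-values may be too small. The main edgeR fits had no term for these pairs. Their intervals and p-values for days and clones may also be too narrow or too small.

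The 10 genes and all lists were chosen with earlier results of these data known. Named from each list were up to 3 genes with the largest called rise and 3 with the largest fall from day 0 to day 6, all members, their paralogs, Rxra, and for each fitted member the 3 genes most alike in course. Some genes that this rule names are not reported here. Genes outside that rule were chosen after their values were seen: Bmp7, Lhx8, Esrrg, Myod1, Myf6, Ptprc, Kdr and Cdh5. Same-numbered RxraWT and RxraSA libraries of a clone and day deviated together (r of 0.176 to 0.930 over 18 pairs), so replicate numbers pair the genotypes. Across days 16 of 18 correlations exceeded 0.1. Scripts were tested on simulated data. Alternatives were DESeq2 1.42.0, other scalings and filters, other model terms, single clones and leaving out each library. Depth was 11351078 to 24349263 counts per library, and counting intervals cover counting error only.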

Additional observations from a re-analysis of the deposited data

Results flagged for a closer look

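Ppargc1a in clone 48 on day 0 had a library apart from the other 5, RxraWT replicate 2 at 16.53 CPM against a median of 13.1 (gap over range 0.676, above Dixon's 95% value of 0.625 for 6 samples). Of 24 sets of 6 libraries examined this was the one so marked, and chance marks about 1 in 20. The step of Cidea from day 2 to day 6 differed between the clones by -3.82 on the log2 scale (edgeR's quasi-likelihood test, adjusted p = 3.40e-05), clone 48 having risen and clone 66 not. Clone and library pool cannot be told apart in this difference. Cidea passed the filter mainly through clone 48 on day 6, so the difference is a description only.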

How the results depend on the processing

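No result reversed. The number of the 10 genes called changed by more than 1.5 times in these cases: with clone 66 fitted alone 2 were called from day 0 to day 2 (Cidea not tested), with the libraries of the compared day alone 1 differed between clones on day 0 (4 of the 6 not tested, Cox7a1 among them) and 3 on day 6 (Cidea and Elovl3 not tested), with a filter of 1 CPM in 6 libraries 0 differed between clones in the step from day 2 to day 6 (Cidea not tested), and without a filter 7 were called from day 2 to day 6 over both clones and in clone 48, and 5 from day 0 to day 2 in clone 66. With the replicate block 1 gene, Ebf2, differed between clones in the change from day 0 to day 6 (0.78, adjusted p = 0.0479), and over all genes the clone-by-day calls went from 1144, 1033 and 644 to 2248, 2082 and 1369. It also gained the day 6 clone difference of Cox8b and the rise of Ppargc1a by day 2 in clone 66, and changed no other call of the 6 genes. Without the clone term Ebf2 was not called from day 0 to day 2 (adjusted p = 0.316) or to day 6 (adjusted p = 0.378), and with clone 66 alone Ppargc1a was not (adjusted p = 0.0988 and 0.106). Without a filter 5 genes differed between the clones in genotype effect on day 0. Elovl3 without RxraWT replicate 3 of clone 66 day 0 rose by 8.32 in that clone by day 2 in place of 6.70, and its day 0 clone difference was then called (-3.41, adjusted p = 0.0415). The fall of Dio2 from day 2 to day 6 in clone 66 was lost without any 1 of 5 day 6 libraries (adjusted p = 0.0818), and the day 2 to day 6 step of Prdm16 in clone 48 was gained without replicate 1 of either genotype on day 6 (adjusted p = 0.0351). Adjusted p-values are edgeR's unless a permutation is named, and those of Dio2 and Prdm16 are from the exact permutation. Other causes were not tested. Depth limits Ucp1, Prdm16, Dio2, Zic1 and the day 0 levels of Cidea, Elovl3 and Cox8b.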
